A study of Mus musculus with 4 samples.

Results

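The miRNA described here are encoded in the imprinted Dlk1-Dio3 domain of mouse chromosome 12, in the stretch that covers Meg3, the antisense strand of Rtl1 and Rian, upstream of the large miRNA cluster that runs from miR-379 to miR-410. They were chosen by name, as every row of the count tables that carries 1 of 16 miRNA numbers with any letter, locus number or arm. This gave 33 mature arms from 17 hairpin genes, of 1966 listed mature miRNA. All 33 arms were listed with 0 reads in each of the 4 libraries. The rule itself reads names only.

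Small RNA of cultured cortical neurons was sequenced from embryos of 2 genotypes, WT and TgAD, with 2 libraries each. TgAD neurons carry 2 transgenes that WT neurons lack, namely a chimeric mouse/human amyloid precursor protein with the Swedish mutations and a human presenilin 1 without exon 9, on the B6C3 background. The promoter is taken from the mouse prion gene, so the transgenes are active above all in neurons. Cortex was taken at E16.5 and dissociated, and the cells of all 4 libraries were kept for 5 days in vitro without further treatment. The methods state that each embryo was cultured separately, and the cultures hold whatever other cell types the dissociated cortex contained. In such bulk RNA, fewer cells of a type and less RNA per cell cannot be told apart.

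The depth behind these values was 2070204 and 2752599 reads counted on miRNA for WT neurons, and 2758525 and 4811010 for TgAD neurons. Reads were found for 1131 of the 1966 listed miRNA in 1 library or more. A second deposited table, of normalized values, holds under its WT and transgenic column names the reads of other libraries than the count tables do, so that the library labels of the 2 sources differ. Which naming is right could not be settled from these files. The count tables were used here with their own labels. Since the members had no reads in any count table, the exchange leaves every member value as it is, but genotype comparisons of other miRNA depend on it. Of the neuronal markers, miR-128-3p had between 43009 and 240174 reads per library and miR-138-5p between 2616 and 3885. In contrast miR-124-3p had between 1 and 7 reads, and both arms of miR-9, encoded at 3 loci, had 0. The oligodendrocyte markers miR-219a-5p, miR-219a-2-3p and miR-338-3p and the endothelial markers miR-126a-3p and miR-126a-5p also had 0 reads in every library. The erythroid miR-451a had between 2595 and 3873 reads, and the mural miR-143-3p between 2051 and 2981. Of the other markers, miR-145a-5p had between 40 and 60 reads and miR-142a-5p between 21 and 51, while miR-206-3p, miR-223-3p, miR-144-3p and miR-144-5p had at most 16, and miR-142a-3p, miR-1a-3p and miR-133a-3p had 0. Of the 10 markers at 0, 6 are overlapped by an annotated arm on the opposite strand. These are both arms of miR-9, miR-219a-5p, miR-338-3p, miR-142a-3p and miR-126a-3p. This arrangement was itself mostly at 0 among the listed miRNA, these 6 markers included, as given below. The other markers at 0, miR-219a-2-3p, miR-126a-5p, miR-1a-3p and miR-133a-3p, had no position under these names in the reference, so their overlap is not known. Of the markers with reads, 0 were found to be overlapped, though miR-124-3p, miR-143-3p and miR-145a-5p also had no position. The part of the overlap in these zeros was not tested, and a marker at 0 is not read here as a missing cell type.

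In the Dlk1-Dio3 domain the parental copies are expressed differently. The paternal copy gives the protein-coding genes Dlk1, Rtl1 and Dio3, and the maternal copy gives the long noncoding RNA Meg3, a transcript antisense to Rtl1, Rian, Mirg and the small RNA processed from them. A miRNA hairpin can give a mature strand from each arm, 5p and 3p, and a mature strand recognizes transcripts mainly through its seed, bases 2 to 8. The miRNA antisense to Rtl1 are fully complementary to the Rtl1 transcript and are known to direct its cleavage. Rtl1 is a gene derived from a retrotransposon and is known for its role in the placenta. Small RNA of the domain are known to be expressed in brain.

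In the reference sequences of RefSeq on GRCm38.p6, all 33 arms were matched by name, and they lie on chromosome 12 between 109563710 and 109618326. By position they fall into 3 groups. The first holds 15 arms of 8 hairpin genes, from miR-770 inside Meg3 (ENSMUSG00000021268.17, 109541001 to 109571726, plus strand) to miR-3070 before Rtl1. Both arms of miR-770 lie in an intron of 3 and an exon of 1 of the 4 Meg3 transcripts that span them. The other miRNA of this group lie between the annotated spans of Meg3 and Rtl1. The second group holds 12 arms of 6 hairpin genes within Rtl1 (ENSMUSG00000085925.3, 109589193 to 109600330, minus strand). The third holds 6 arms, those of miR-341, miR-1188 and miR-370, in introns of Rian (ENSMUSG00000097451.10, 109603940 to 109661716, plus strand). Thus 13 of the 33 arms lie in none of the 3 genes, and the name of the region describes the span rather than the host of each arm.

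The arms within Rtl1 are printed first, because their sequence ties them to a single protein-coding gene. Each is given 5′ to 3′ in the order of its position, as RefSeq lists it, with the seed in capitals.
miR-431-5p: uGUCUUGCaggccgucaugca
miR-431-3p: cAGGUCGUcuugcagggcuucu
miR-433-5p: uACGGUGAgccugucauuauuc
miR-433-3p: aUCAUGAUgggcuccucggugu
miR-127-5p: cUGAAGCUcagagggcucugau
miR-127-3p: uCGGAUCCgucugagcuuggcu
miR-434-5p: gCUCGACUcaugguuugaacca
miR-434-3p: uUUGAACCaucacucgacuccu
miR-3071-3p: aUCAUCAAaacaaauggagucc
miR-136-5p: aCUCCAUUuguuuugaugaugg
miR-3071-5p: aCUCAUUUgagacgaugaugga
miR-136-3p: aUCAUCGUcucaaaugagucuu

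The 10 arms of miR-431, miR-433, miR-127, miR-434 and miR-136 lie on the plus strand and were complementary over their whole length to the annotated Rtl1 transcript, each within the coding sequence that runs from 109590172 to 109595403. The 2 arms of miR-3071 lie on the minus strand, the strand of Rtl1, and were identical to the Rtl1 transcript over their whole length. miR-3071 is encoded opposite miR-136. miR-3071-3p overlaps miR-136-5p by 20 bases and miR-3071-5p overlaps miR-136-3p by 19 bases. Each of these 12 arms had 0 reads in WT library 1, WT library 2, TgAD library 1 and TgAD library 2. Both genotypes were at 0 on every arm, so that no library was high or low.

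From the other groups, the miRNA inside Meg3, the pair of related miR-3070 3p arms and 3 of the arms in Rian are printed. They include the member with the highest GC content and the only seed that members share. Their GC content ranges from 54.5% to 76.2%, while that of the first group goes down to 40.9%.
miR-770-5p: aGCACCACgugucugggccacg
miR-770-3p: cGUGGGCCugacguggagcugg
miR-3070-3p: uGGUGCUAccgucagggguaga
miR-3070-2-3p: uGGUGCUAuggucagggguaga
miR-341-5p: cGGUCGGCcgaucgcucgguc
miR-341-3p: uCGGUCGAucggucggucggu
miR-370-3p: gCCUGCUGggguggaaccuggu

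The miR-3070 3p arms share the seed GGUGCUA and differ by C9U and C10G, counted from the 5′ end with the base of miR-3070-3p first. The matching 5p arm, miR-3070-5p, is encoded at 2 loci, and a read of it cannot be assigned to 1 of them. The 33 arms carry 32 different seeds. Only 3 of these seeds occur in other listed miRNA of the reference. miR-370-5p shares AGGUCAC with miR-1193-3p of the cluster of miR-379 to miR-410, which was counted 49 and 83 times in WT and 103 and 137 times in TgAD neurons. The other miRNA with a shared seed, miR-6915-5p and miR-6985-3p, had at most 2 reads in any library.

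Each of the 15 arms of the first group had 0 reads in both WT and both TgAD libraries. These are the arms of miR-770 inside Meg3 and those of miR-673, miR-493, miR-337, miR-540, miR-665 and miR-3070 between Meg3 and Rtl1. The 6 arms in Rian had 0 reads in the same 4 libraries. With 3 reads as the limit that a count of 0 allows, each arm could reach at most 1.45 and 1.09 CPM of library reads in the WT libraries, and 1.09 and 0.624 CPM in TgAD library 1 and library 2. Over both libraries of a genotype the limit was 0.622 CPM for WT and 0.396 CPM for TgAD. Over the 12392338 reads counted on miRNA in all 4 libraries it was 0.242 CPM. These limits cover counting error only, since the reads carry no molecular identifiers. They hold only if reads of an arm could be counted in these data. No read of these miRNA was counted in either genotype. A level below the limits and reads that were sequenced but not counted cannot be told apart from these values.

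The study asked which miRNA differ between TgAD and WT neurons, and for this region the comparison could not be made arm by arm. None of the 33 arms passed edgeR's filter on low counts, none had the single read needed for the fit without that filter, and so 0 of 33 met the cutoffs, a change of more than 0.6 in log2 with a Benjamini-Hochberg adjusted p below 0.1 by edgeR's quasi-likelihood method. The share meeting them was 33.1% among the 496 miRNA that entered the fit. With the reads of the normalized table taken by its column names it was 0 of 480, with 54 at an unadjusted p under 0.05 in edgeR. DESeq2 gave 0 members as well, and 0 members had an unadjusted p under 0.05 with either tool, because none was tested. No fold change is given, since both genotypes lay at the floor. The ratio of the 5p to the 3p arm, which does not depend on library size, could be formed for none of the 16 member hairpins with both arms listed. It was tested for 197 hairpins with at least 10 reads on each arm, of which 26.9% differed between genotypes (edgeR quasi-likelihood interaction, adjusted p below 0.1).

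The counts changed abruptly along the chromosome. Of the 1966 listed names, 1675 had a position in the reference, and only these could be placed in order. Among the placed arms, the 33 arms lay in an unbroken run of 39 arm positions at 0 reads. The run goes from miR-1906 at 109544588 to miR-882 at 109682228 and spans 137.6 kb. Besides the members the run holds miR-1906, miR-3544-5p, miR-3544-3p, miR-432 and miR-882, which the number rule does not name. The next placed arm downstream, miR-379-5p, starts 26.8 kb after the run and 90.7 kb after miR-370-3p. Its raw counts were 12353 and 22919 in WT and 11842 and 20879 in TgAD neurons. Scaled for depth with TMM, these were 5258 and 7872 CPM in WT and 4316 and 5192 CPM in TgAD neurons, a log2 fold change of -0.47 (SE 0.26) that missed the cutoffs (edgeR adjusted p = 0.247). Its partner miR-379-3p had 316 and 455 raw reads in WT and 327 and 525 in TgAD libraries. On the TMM scale this was 134 and 156 CPM against 119 and 131 CPM, a log2 fold change of -0.22 (SE 0.21, edgeR adjusted p = 0.481). The nearest placed arm upstream, miR-345-3p, lies 707.5 kb before the run. It had 534 and 534 CPM in WT and 883 and 837 CPM in TgAD libraries. This was a log2 fold change of 0.69 (SE 0.18, edgeR adjusted p = 0.0377). The 5p arm of the same hairpin, miR-345-5p, went the other way, with 1000.2 and 744 CPM in WT and 606 and 393 CPM in TgAD libraries and a log2 fold change of -0.80 (SE 0.28, edgeR adjusted p = 0.0796). All of these arms were thus counted in every library of both genotypes, unlike the members between them.

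**Figure D1:**
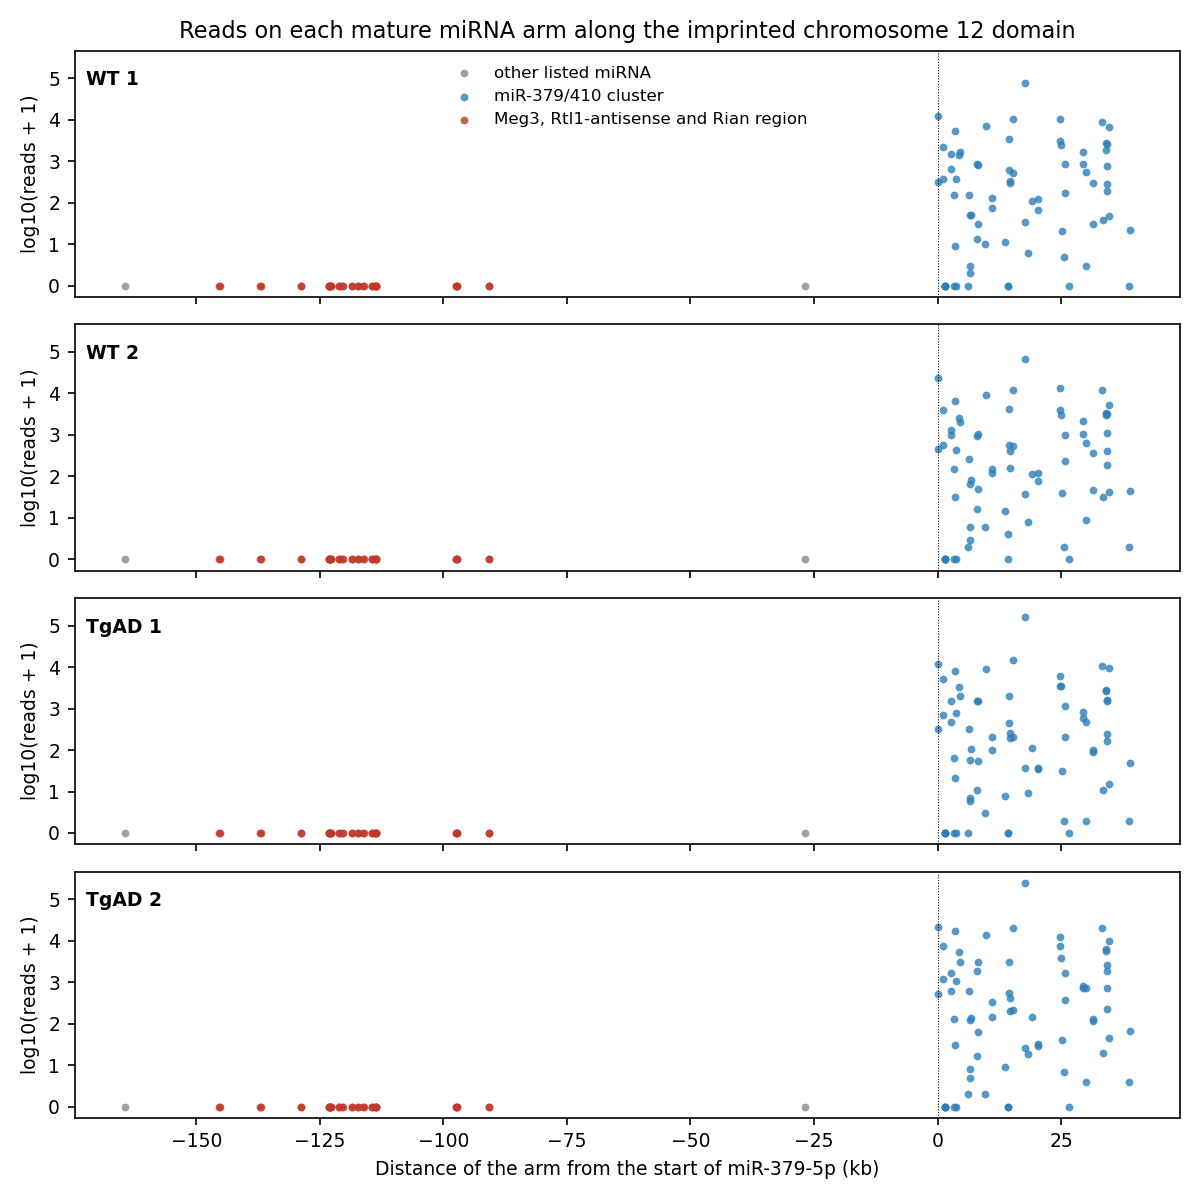
Reads on each mature arm, as log10 of reads plus 1, against the distance in kb from the start of miR-379-5p, with 1 panel per library. The 33 arms of the Meg3, Rtl1-antisense and Rian region (red) lie at 0 in all 4 panels, whereas most arms of the cluster of miR-379 to miR-410 (blue) have reads, and miR-379-5p itself has between 11842 and 22919.

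The contrast with the rest of the domain was the same in each library. The cluster of miR-379 to miR-410, listed with 78 arms, took 8.66% and 7.29% of all miRNA reads in WT neurons and 10.1% and 9.07% in TgAD neurons, against 0 reads for the 33 arms upstream of it. Reads fell on 69 of these 78 arms, and 9 had none. Of the 59 cluster arms that were tested, 12 were lower and 10 higher in TgAD neurons past the cutoffs, with a median log2 fold change of 0.0014, against a median of 0.032 over all 496 tested miRNA. These calls rest on the labels of the count tables, as 0 miRNA were past the cutoffs with the column names of the normalized table. The members gave no value to set beside these. Between miR-379-5p and its upstream neighbours, therefore, the difference was in whether an arm was counted at all, in WT and TgAD libraries alike.

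Runs and clusters of miRNA at 0 also occurred elsewhere, and they give the background for the region. Among 1734 listed arm positions placed in genome order there were 316 runs at 0, of which only 3 held 10 or more positions. The other long runs held 18 positions on chromosome 7, from miR-290b-3p to miR-935, and 15 on chromosome 17, from miR-3083-3p to miR-7667-5p. When arms up to 10 kb apart were joined, 7 clusters of at least 10 arm positions were found, and 2 had no read on any arm. One ran from miR-770-5p to miR-136-3p, with 31 positions of which 28 belong to members. The other was the cluster of miR-290 to miR-295 on chromosome 7, known for its expression in embryonic stem cells, with 17 positions. In the remaining clusters between 10 of 36 and all positions had reads.

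**Figure D2:**
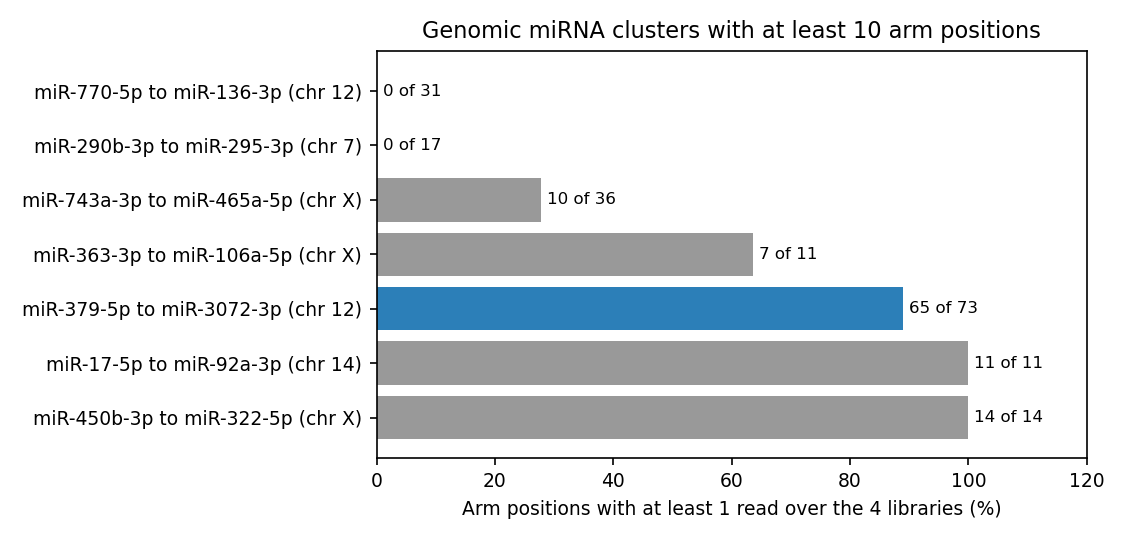
Share of arm positions with at least 1 read over the 4 libraries, in percent, for the 7 genomic clusters with at least 10 arm positions, with the counts beside the bars. The cluster from miR-770-5p to miR-136-3p had reads at 0 of 31 positions and the cluster of miR-379 to miR-410 (blue) at 65 of 73. Only arms with a position in the reference are counted.

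Of all other listed miRNA, 41.5% had 0 reads, so that a single row at 0 was common. Among rows with miRNA numbers under 800, which include 26 of the members, 33.6% of the other 771 were at 0. Counted by hairpin gene, each of the 17 member genes was at 0 on every arm, compared with 36.4% of 1039 other hairpin genes. No test was made of these shares, since arms of 1 hairpin and hairpins of 1 transcript are not independent.

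2 features of a miRNA that bear on how its reads can be counted were compared between the members and the other rows. Where an arm is overlapped by an annotated arm on the opposite strand, 54 of 63 other miRNA, or 85.7%, had 0 reads. This arrangement applied to 6 of the 33 members, namely both arms of miR-136, miR-3071 and miR-337. miR-337 is encoded opposite miR-3544, whose arms overlap it by 17 and 21 bases. Where a sequence occurs at more than 1 annotated locus or hairpin, 38 of 65 other miRNA, or 58.5%, had 0 reads, and among the members this applied to miR-3070-5p. The remaining 26 members have 1 locus, a sequence found in 1 annotated hairpin and no arm on the opposite strand. Of the 1433 other miRNA with these same features 36.7% had 0 reads, and with numbers under 800 it was 22.6% of 504, against 22 of 22 members. The members without these features, such as miR-127-3p, miR-434-3p, miR-433-3p and miR-370-3p, thus had 0 reads as did those with them. The part of these features in the result was not tested.

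**Figure D3:**
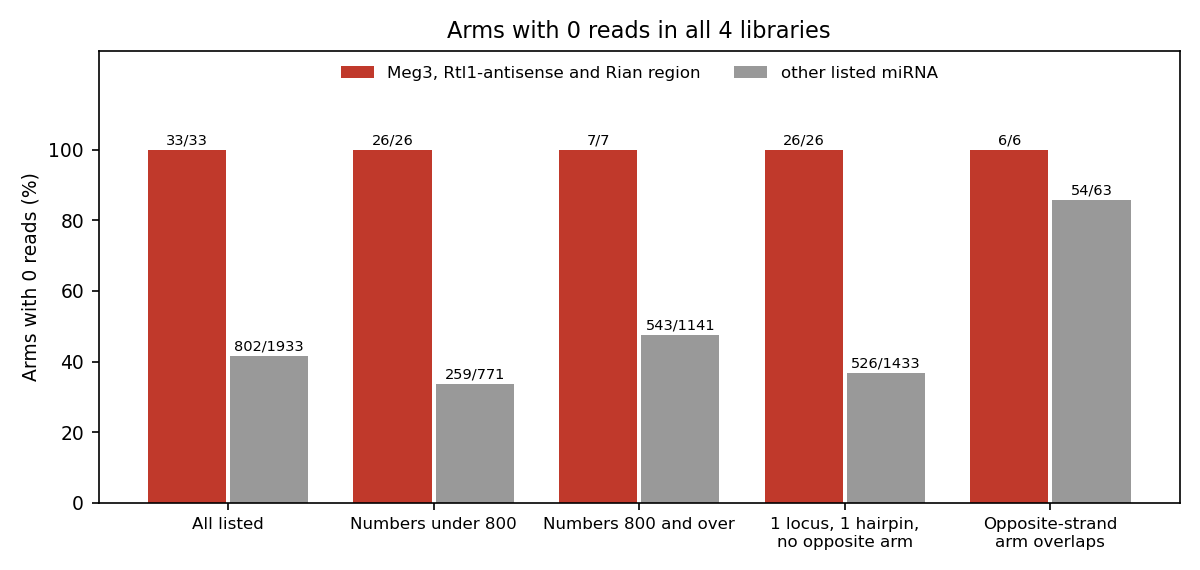
Percentage of arms with 0 reads in all 4 libraries, for members (red) and other listed miRNA (grey), over all rows, by miRNA number, and by features of the locus. Every member bar is at 100%, while the grey bars lie between 33.6% and 85.7%, the highest for arms that an opposite-strand arm overlaps.

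The base composition of the members overlapped that of the detected miRNA. Their GC content ranged from 36.4% for miR-136-5p, miR-136-3p and miR-3071-3p to 76.2% for miR-341-5p, with a median of 57.1%. Its median was 52.2% both in the 999 other miRNA with reads and in the 643 others at 0, and the quartiles of the detected miRNA were 44.0% and 60.0%. The arms within Rtl1 had the lowest median of the 3 groups, 47.8%, and those in Rian the highest, 67.5%. The lengths of the members were 19 to 26 bases, which the 50 bp reads cover. Exact matches of the 33 arms were sought in annotated transcripts, in either orientation. There were none outside the miRNA genes themselves and the Meg3, Rtl1 and Rian loci. The rest of the genome, to which the reads were mapped, was not searched. The part of base composition, length and exact matches in the zeros was not tested.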

How the data were processed

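Small RNA libraries of 2 WT and 2 TgAD cultures were compared, grouped by the sample labels. The authors received reads with adapters removed by the sequencing provider, mapped them without mismatch to GRCm38 with Bowtie2 and counted them on mature miRNA of miRBase with HTSeq-count. The deposited counts are whole reads without normalization. The strand setting and the treatment of reads with several placements are not given in the sources used here. The authors also deposited a normalized signal for 674 miRNA, counts divided by a size factor. In each of its columns 100% of values were whole multiples of 1 read (relative tolerance 0.0001), and none of the members is listed in it.

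Counts were tested with edgeR 4.0.16 (limma 3.58.1, R 4.3.3) by the quasi-likelihood test after TMM and filterByExpr, with genotype as the only factor, and p values were adjusted over all tested miRNA. A miRNA was called where the log2 change exceeded 0.6 in either direction with an adjusted p below 0.1. Arm ratios were tested as an interaction of arm and genotype with library as a factor, and log2 ratios with limma as an alternative. A count of 3 was taken as the floor. On the TMM scale the floor lies between 0.746 and 1.28 CPM. Both procedures were tested on simulated data. Alternatives were RLE, total counts, other filters, DESeq2 1.42.0, the robust option, the replicate number as a block, a GC correction (loess, span 0.75), leaving out each library, and the reads of the normalized table. Values per library were to be printed for called arms and for the most abundant arm of each hairpin with enough reads, a rule that no member met. The members, the lists and the markers were chosen with earlier results of these data known.

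Positions come from GENCODE M21 and RefSeq, both on GRCm38, where 1675 of the 1966 listed names were matched. Python 3.11.15, pandas 2.3.3 and matplotlib 3.10.9 were used.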

Additional observations from a re-analysis of the deposited data

How the results depend on the processing

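None of the members was tested or called under any alternative, so their count of 0 was the same in every setting. That sameness follows from 0 reads and says nothing about stability, and for the same reason no log2 fold change of a member can be given under any setting. The count of member hairpins with an arm-ratio difference was likewise 0 in each, from 0 to 0 when 1 library was left out. Over all tested miRNA, 164 were past the cutoffs, 86 lower and 78 higher. With total counts as library size it was 122 lower and 43 higher, as the median log2 fold change shifted by -0.27. Leaving out single libraries gave counts between 118 and 143, where the lone library of a genotype is assumed to vary like the others. With the replicate block it was 188, and members stayed at 0. The labels do not say that the numbers pair the libraries, and the deviations of same-numbered libraries correlated at 0.216. With the reads of the normalized table taken by column name, 0 of 480 miRNA were past the cutoffs and 54 had an unadjusted p under 0.05 in edgeR. DESeq2 was not run on that table. What depth limits is the level below the floor in each library.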

Other observations

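The column names of the deposited normalized table and the labels of the count tables did not assign the same reads to the same library, and which naming is right could not be settled from these files. The reads recovered from its column for WT library 1 were those of TgAD library 1 in the count tables for 100% of the 674 miRNA listed. In the same way, its column for WT library 2 held the reads of WT library 1, and its first transgenic column those of TgAD library 2. Its second transgenic column, which sums to 1926952 reads, matched no count table, with at most 4.5% of values equal. None of the members is listed in it, so it gives no value for the region.

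Downstream of the region, both arms of miR-299a and of miR-299b, which are encoded opposite each other inside the cluster of miR-379 to miR-410, had 0 reads in all 4 libraries. They are named here because of these values.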
